A study of Mus musculus with 2 samples.

Results

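The Rab GTPase genes of the mouse left cerebral cortex are described here. Members were the protein-coding genes named Rab followed by a number and, for some, further letters or digits, with at least 10 reads summed over both libraries. Of 59 annotated genes with such a name, 47 met that limit, out of 55536 annotated genes in all, and each of the 47 had reads in both libraries. The number of reads therefore chose the members, and their levels are given as a description. Rab29, with 4 reads in replicate 2 and 7 in replicate 1, and Rab13, with 10 reads in replicate 2 and 6 in replicate 1, lay just inside the limit. Rab32 (4 reads in replicate 2 and 5 in replicate 1), Rab20 (5 in replicate 2 and 3 in replicate 1) and Rab37 (4 in each) lay just outside it. A further 5 of the named genes had 1 to 5 reads in all, and Rab17, Rab19, Rab25 and Rab44 had 0.

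Total RNA of left cortex from mice of strain B6NCrl, aged 6 months, had been sequenced by long reads, each of which can cover a whole transcript. The samples were labelled as biological replicates 2 and 1 of 1 group, with no treatment, mutation or second group, so no conditions could be compared. The donor record was the same for both samples, and nothing stated that they came from separate animals, so the spread between them may be technical. Replicate 2 held 1304133 reads and replicate 1 held 1306424. Levels are given as CPM, a gene's reads scaled to a library total of 1000000. In both libraries 3 reads, the limit that a count of 0 allows, stood for 2.30 CPM, and limits and intervals cover counting error only. A long read counts once whatever the length of its transcript, so CPM values of different genes were compared without division by length. The tables mark no molecular identifiers, so copies made by PCR could not be told from separate molecules. Positions are those of mm10 with GENCODE M21 gene models.

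The labels named cerebral cortex, and all 42 listed markers of neurons of either kind, of glia, vessel cells, choroid plexus and red blood cells had reads. Summed levels of most lists lay close together in the libraries, such as 675 CPM in replicate 2 and 511 CPM in replicate 1 for excitatory neurons. The list for oligodendrocyte precursors had 90.5 CPM in replicate 2 and 201 CPM in replicate 1. The red blood cell list had 16.1 CPM in replicate 2 and 36.0 in replicate 1, and the choroid plexus list 38.3 CPM in replicate 2 and 58.2 in replicate 1. One field of the labels called the tissue male and another gave the sex as not collected, whereas all 4 Y-linked genes looked up had 0 reads in both libraries. The part of cell composition in any difference below was not tested. In whole tissue, fewer cells of a type and less RNA per cell cannot be told apart.

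Rab proteins are small GTPases of the Ras superfamily that give membranes of the cell their identity. An exchange factor loads a Rab with GTP on its membrane, the active Rab recruits effectors such as tethers and motors, and a GTPase-activating protein ends the cycle. GDP dissociation inhibitors then lift the lipid-anchored protein off the membrane. In neurons the family is known for its work on synaptic vesicles, on traffic along axons and dendrites and on endosomal sorting.

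The sequences on which the splicing results turn came from the GENCODE M21 transcripts. Rab6a has a pair of alternative coding exons of equal length, of which a transcript uses 1. The upstream exon lies at chr7:100629666-100629771 and the downstream exon at chr7:100629838-100629943, both on the plus strand. They are shown because they are what distinguishes Rab6a-202 from Rab6a-201, and capitals mark the 30 of 106 bases that differ between them.
Rab6a upstream exon: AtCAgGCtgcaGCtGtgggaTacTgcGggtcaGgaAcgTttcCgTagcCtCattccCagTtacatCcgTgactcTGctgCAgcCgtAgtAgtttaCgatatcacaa
Rab6a downstream exon: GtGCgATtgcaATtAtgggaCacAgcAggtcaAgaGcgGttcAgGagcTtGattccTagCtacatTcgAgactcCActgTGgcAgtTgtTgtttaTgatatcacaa
Between the coding sequences, 24 of 208 codons differed and 3 of these encoded another amino acid. Rab28 has a cassette exon of 95 bases near its 3′ end, at chr5:41626987-41627081 on the minus strand, whose inclusion in Rab28-203 supplies the end of the reading frame. Its first 87 bases are coding, and capitals mark the stop codon.
Rab28 cassette exon: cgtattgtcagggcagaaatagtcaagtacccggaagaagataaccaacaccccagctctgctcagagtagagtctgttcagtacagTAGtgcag
Rab3a, the member with the most reads, has more than 1 splice donor at the end of its first exon. The last 30 bases of that exon in Rab3a-204, at chr8:70754839-70754868 on the plus strand, are in the 5′ UTR. Capitals mark the 5 bases that Rab3a-204 has and Rab3a-201 lacks.
Rab3a end of exon 1: ccagcgttgtctcagcttagagaggGTAAG

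The 47 genes together had 5171 CPM in replicate 2 and 5949 CPM in replicate 1, a mean of 5560 ± 550 CPM (SD, n = 2). They took 0.517% of all reads in replicate 2 and 0.595% in replicate 1. The reads were unevenly spread, since the 5 members with the most reads held 46.7% of the family's reads in replicate 2 and 46.3% in replicate 1. The 12 with the most reads held 70.9% in replicate 2 and 72.0% in replicate 1.

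Among the Rabs of secretory and synaptic vesicles, Rab3a stood far above the rest. Rab3a (chr8:70754679-70758635, plus strand), which sits on synaptic vesicles and binds effectors in regulated exocytosis, had 588 CPM in replicate 2 and 963 CPM in replicate 1. Its close relative Rab3c had 162 CPM in replicate 2 and 164 in replicate 1, Rab3b 91.2 CPM in replicate 2 and 81.1 in replicate 1, and Rab3d, best known from secretory cells outside the brain, 6.90 CPM in replicate 2 and 10.7 in replicate 1. The order of these 4 genes was the same in both libraries. Rab26, which is linked to synaptic vesicles and their clearance by autophagy, had 32.2 CPM in replicate 2 and 62.0 CPM in replicate 1. Rab27b, a regulator of vesicle docking and exosome release, had 42.9 CPM in replicate 2 and 30.6 in replicate 1, while its paralogue Rab27a stayed under the limit for members, with 2 reads in replicate 2 and 1 in replicate 1.

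The Rabs of the endoplasmic reticulum and Golgi formed the group of the highest summed level, 1922 CPM in replicate 2 and 2045 CPM in replicate 1 over 13 members. Rab6a (chr7:100607410-100641268, plus strand), which directs traffic at the Golgi and back to the endoplasmic reticulum, had 727 CPM in replicate 2 and 660 CPM in replicate 1. It led the family in replicate 2 and came after Rab3a in replicate 1, so the order of these 2 genes was not settled. Rab6b, the paralogue known for its expression in brain, had 265 CPM in replicate 2 and 235 in replicate 1. Rab2a, which acts between endoplasmic reticulum and Golgi and in the delivery of cargo to lysosomes, had 169 CPM in replicate 2 and 454 CPM in replicate 1. Rab18, known from lipid droplets and the endoplasmic reticulum, had 224 CPM in replicate 2 and 182 in replicate 1. Rab1a and Rab1b, which serve transport from the endoplasmic reticulum to the Golgi, lay near each other. Rab1a had 181 CPM in replicate 2 and 165 in replicate 1 and Rab1b 116 CPM in replicate 2 and 145 in replicate 1. Rab39b, a gene on the X chromosome that is mutated in human intellectual disability with early parkinsonism, had 56.7 CPM in replicate 2 and 49.8 in replicate 1.

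On the endosomal routes, the highest levels were those of Rab7, Rab11b and Rab14. Rab7, the Rab of late endosomes and lysosomes, had 391 CPM in replicate 2 and 407 CPM in replicate 1. Rab11b, a Rab of recycling endosomes, had 342 CPM in replicate 2 and 423 in replicate 1. Rab14, which works between the trans-Golgi and endosomes, had 367 CPM in replicate 2 and 299 in replicate 1. These 3 changed places between the libraries, so their order was not resolved. Rab11a, the other measured Rab11 gene, had 157 CPM in replicate 2 and 103 in replicate 1, lower than Rab11b in both. Rab15, a Rab of early and recycling endosomes found in neurons, had 133 CPM in replicate 2 and 184 in replicate 1. Rab5a, the defining Rab of early endosomes, had 57.5 CPM in replicate 2 and 165 CPM in replicate 1. Its paralogues Rab5b and Rab5c both had 36.8 CPM in replicate 2, with 47.5 CPM and 45.2 CPM in replicate 1. Rab9, which serves retrieval from late endosomes to the trans-Golgi, had 79.7 CPM in replicate 2 and 68.9 in replicate 1.

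The Rabs of exocytic carriers were low, at 143 CPM in replicate 2 and 188 CPM in replicate 1 over 5 members. Rab8a, which acts in exocytosis and cilium formation, had 66.7 CPM in replicate 2 and 65.8 in replicate 1. Rab10, which delivers membrane during axon growth and is a substrate of the kinase LRRK2, had 31.4 CPM in replicate 2 and 87.3 CPM in replicate 1. Among members with other roles, Rab28, a Rab linked to cilia and to retinal cone-rod dystrophy, led with 95.1 CPM in replicate 2 and 101 in replicate 1. Rab40b, of the subfamily with a SOCS box, had 62.9 CPM in replicate 2 and 52.1 in replicate 1.

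**Figure D1:**
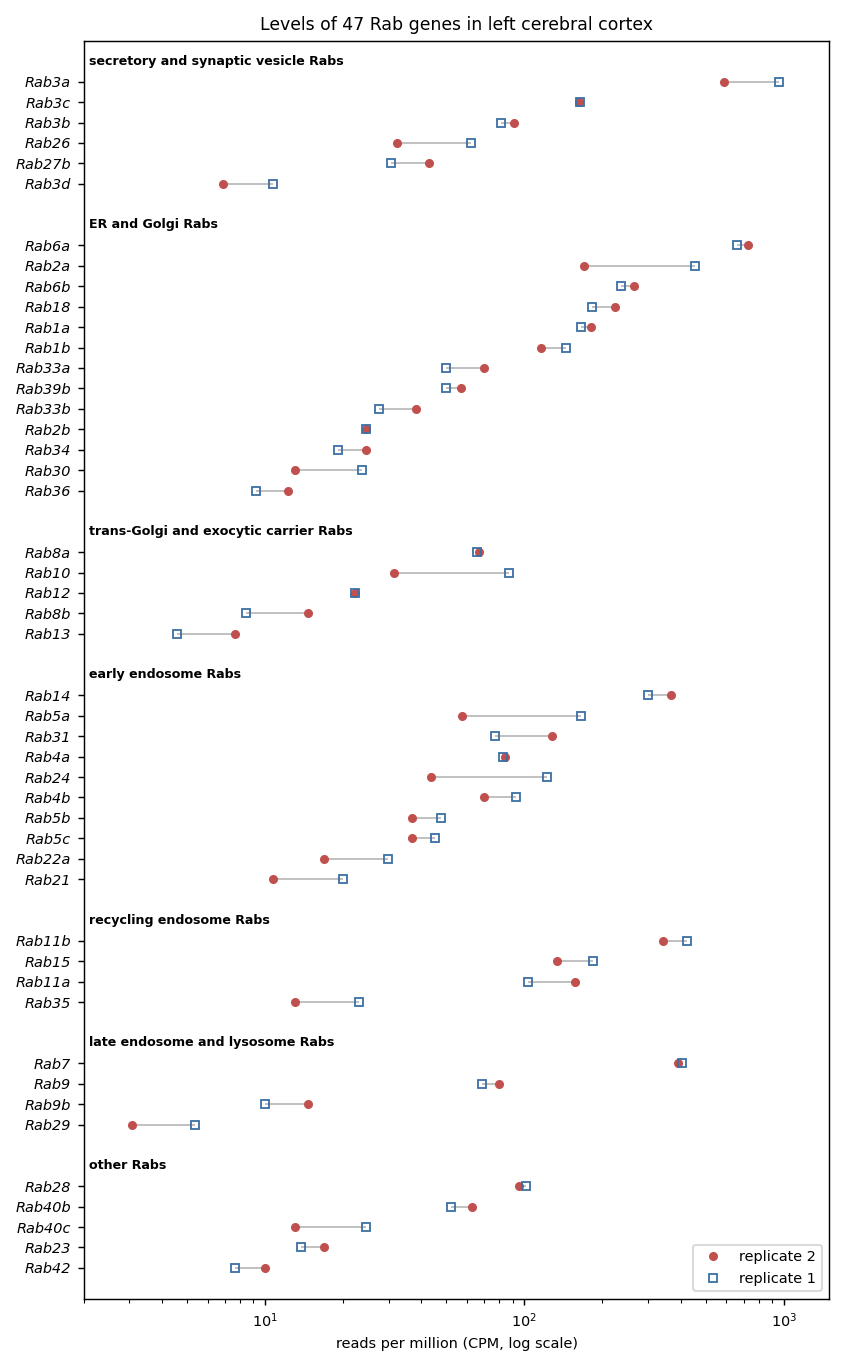
Level of each of the 47 Rab genes in CPM on a log axis, grouped by role, with a filled circle for replicate 2, an open square for replicate 1 and a line joining the pair. Rab3a (588 CPM in replicate 2, 963 in replicate 1) and Rab6a (727 CPM in replicate 2, 660 in replicate 1) lie farthest to the right, and the widest gaps among the abundant genes are those of Rab2a, Rab5a, Rab24 and Rab10.

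Paralogues differed at many bases of their coding sequence. Within the sets Rab1 to Rab6 and Rab11, 14 pairs of leading transcripts had coding sequences that were 71.9% to 78.4% identical in a global alignment. Near copies of members, at 97% identity or more over at least 200 bases, included 4 processed pseudogenes, and these had 0 reads between them in both libraries. Rab24 shares 408 bases of transcript with the gene Prelid1 on the opposite strand, and Rab6a shares 409 bases with Mrpl48 in the same way. Prelid1 had 281 reads in replicate 2 and 276 in replicate 1, where Rab24 had 57 in replicate 2 and 159 in replicate 1.

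Since there was 1 group, the libraries could be compared only with each other. Each gene's split of reads was tested against the library totals by an exact two-sided binomial test, with Benjamini-Hochberg adjustment over all 11838 genes of at least 10 reads. Calls needed an adjusted p below 0.05 together with a ratio of at least 2-fold. The test measures counting noise between 2 libraries and says nothing about a condition. Among the 47 members 4 were called in either direction, against 7.05% of all genes tested. All 4 were lower in replicate 2, against 5.44% of all genes. None was higher, against 1.61% of all genes, where the same test with no limit on fold gave 8 lower members, against 8.11% of all genes, and 3 higher members, against 4.72% of all genes. In either direction 18 members had an unadjusted p under 0.05, against 22.8% of all genes. A gene passes the binomial test more easily the more reads it has, and members were not matched to other genes by reads. The median log2 ratio was 0.00 for the members and 0.00 for all genes, and 30 members lay within 1.5-fold.

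By role, 1 of 13 Rabs of the endoplasmic reticulum and Golgi and 1 of 5 of exocytic carriers were lower. So were 2 of 10 in the early endosome list, Rab5a and Rab24, against 5.44% of all genes. The list holds Rab24 although its links, given below, are to autophagy and endosomal degradation. The counts were 0 of 6 of secretory vesicles, 0 of 4 of recycling endosomes, 0 of 4 of late endosomes and 0 of 5 with other roles. Differences between roles were not tested. Rab2a (chr4:8535644-8607778, plus strand) had 221 reads in replicate 2 and 593 in replicate 1, a log2 ratio of -1.42 with a 95% interval of -1.65 to -1.20 and an exact binomial adjusted p of 8.99e-38. Rab5a (chr17:53479234-53507680, plus strand) had 75 reads in replicate 2 and 215 in replicate 1, and its ratio was -1.51 (-1.92 to -1.13) with an exact binomial adjusted p of 5.24e-15. Rab24 (chr13:55319743-55321779, minus strand), an atypical Rab linked to autophagy and endosomal degradation, had 57 reads in replicate 2 and 159 in replicate 1, and its ratio was -1.47 (-1.94 to -1.03) with an exact binomial adjusted p of 1.14e-10. Rab10 (chr12:3247428-3309969, minus strand) had 41 reads in replicate 2 and 114 in replicate 1, and its ratio was -1.46 (-2.02 to -0.95) with an exact binomial adjusted p of 1.27e-07. The paralogues of 2 of them did not pass the test. Rab2b had 32 reads in each library, while Rab5b had 48 reads in replicate 2 and 62 in replicate 1 and Rab5c 48 in replicate 2 and 59 in replicate 1. That Rab5a differed from Rab5b, or Rab2a from Rab2b, was not tested.

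Smaller differences passed the adjusted threshold of the exact binomial test but not the limit on fold in 7 members, against 5.78% of all genes. Rab3a was lower in replicate 2 by a log2 ratio of -0.71, Rab26 by -0.94, Rab15 by -0.47 and Rab11b by -0.31. Rab31, of the Rab5 subfamily, was higher by 0.73, Rab11a by 0.61 and Rab14 by 0.30. Rab11a had 205 reads in replicate 2 and 134 in replicate 1, and Rab11b had 446 in replicate 2 and 553 in replicate 1; the difference between the pair was not tested. Several of the 7 missed the threshold when reads of 1 class were tested against the library totals of that class. On known transcripts alone the exact binomial adjusted p was 0.411 for Rab31, 0.326 for Rab11b and 0.0928 for Rab26. On spliced models alone it was 0.382 for Rab31, 0.252 for Rab11b and 0.0625 for Rab14. By the same exact binomial test Rab14 passed on known transcripts (adjusted p of 0.0156) and Rab26 on spliced models (adjusted p of 0.0238). Rab3a, Rab15 and Rab11a passed the adjusted threshold in both.

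**Figure D2:**
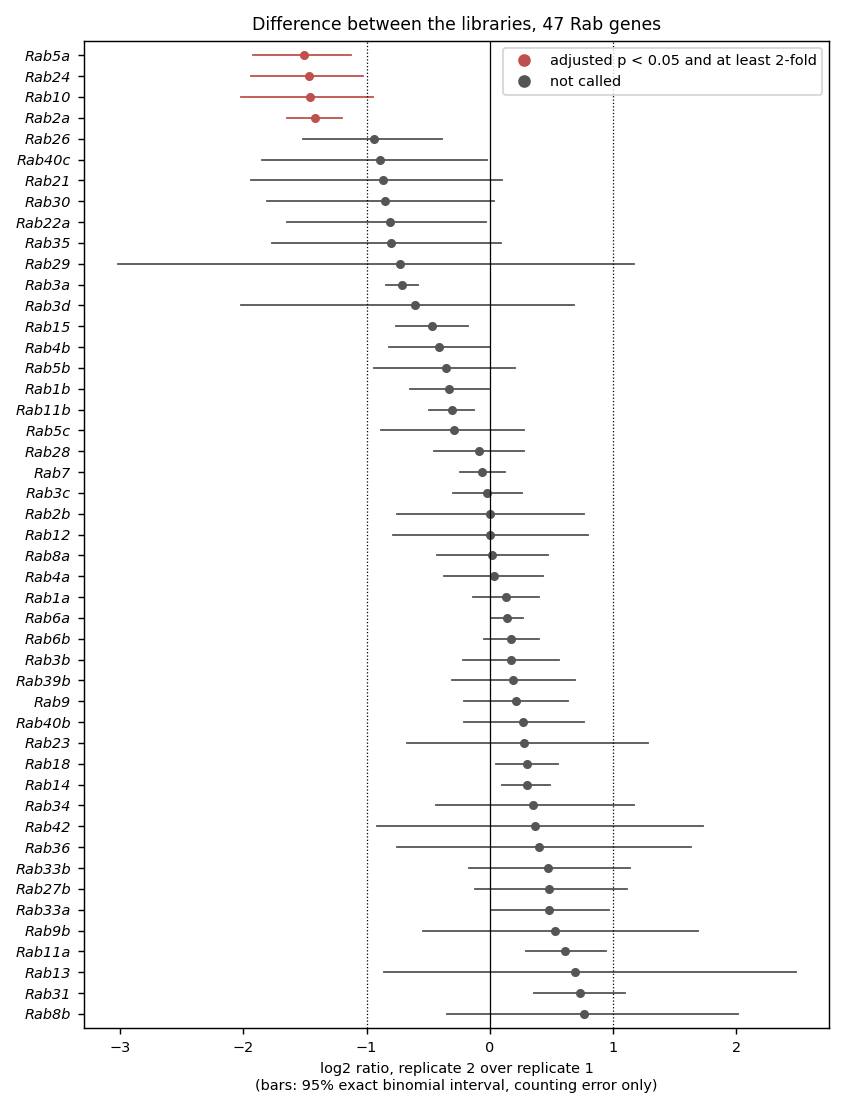
Log2 ratio of replicate 2 over replicate 1 for the 47 Rab genes, sorted, with 95% exact binomial intervals and dotted lines at 2-fold. Rab5a, Rab24, Rab10 and Rab2a, in red, are the called genes, at -1.51 to -1.42, and the others lie between -0.94 and 0.76.

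The 4 lower genes had their most GC-rich stretch in the 5′ UTR, as 44 of the 47 members did. Its GC content, taken over the most GC-rich 100 bases of the leading transcript, was 83.0% in Rab2a and Rab24, 82.0% in Rab10 and 81.0% in Rab5a, against a median of 77.0% over the 47 members and 73.0% over the 10596 tested genes with a known transcript and its sequence. Over the whole transcript the 4 had a median GC content of 44.4%, and all members 48.7%. Among all tested genes, 22.9% of those in the top of 5 bins by the GC content of that stretch were lower in replicate 2, and 1.04% of those in the bottom bin. Rab2a, Rab10 and Rab24 were in the top bin. Rab5a was at the upper edge of the fourth, of 76.0% to 81.0%, where 4.51% of genes were lower. The stretch was as GC-rich, at 81% or more, in 12 members that were not called. Of these, Rab21 and Rab35, the most GC-rich members, and Rab40c, Rab22a and Rab15 had log2 ratios of -0.89 to -0.47. Rab12 had a ratio of 0.0, and Rab4a, Rab6a, Rab6b, Rab40b, Rab33b and Rab9b had ratios of 0.03 to 0.53. Among the 31 members below 81%, 0 were called. The part of GC content in the ratios was not tested.

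**Figure D3:**
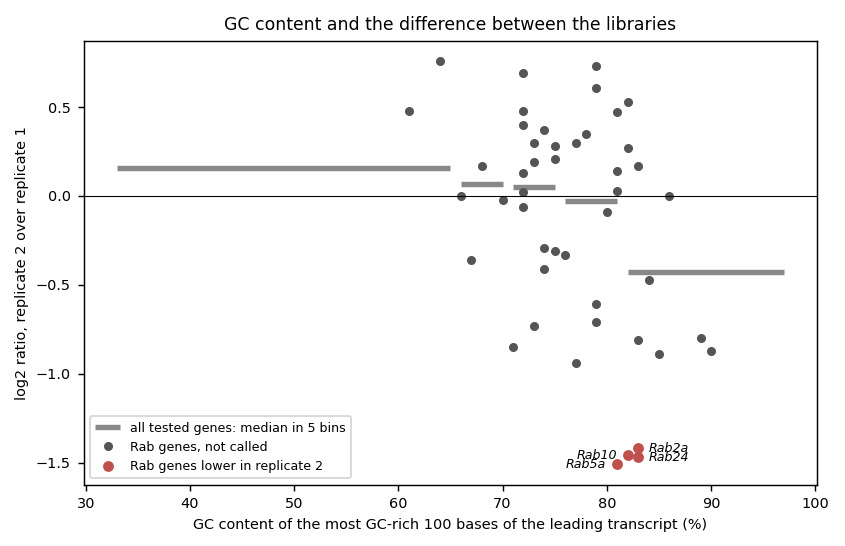
Log2 ratio of replicate 2 over replicate 1 against the GC content of the most GC-rich 100 bases of the leading transcript, for the 47 Rab genes (points) and as the median of all tested genes in 5 bins (grey bars). The 4 called genes, in red, lie at 81.0% to 83.0%, and the median over all genes is 0.16 in the bottom bin and -0.43 in the top bin.

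Proteins that run the Rab cycle were measured beside the members. Of 102 listed regulators and effectors 81 had at least 10 reads, 3 of these were lower in replicate 2 and 0 higher, against 5.44% lower and 1.61% higher of all genes. With no limit on fold 0 were higher as well, and 18 of the 81 had an unadjusted p under 0.05 in either direction, against 22.8% of all genes. By list, 2 of 23 exchange factors, 1 of 28 GTPase-activating proteins, 0 of 22 effectors and kinases and 0 of 8 genes for extraction, prenylation and membrane insertion were lower. The 8 genes of the last list had 1054 CPM in replicate 2 and 1197 CPM in replicate 1 together. Rabac1, the prenylated Rab acceptor, had 373 CPM in replicate 2 and 377 CPM in replicate 1. Gdi2, a GDP dissociation inhibitor, had 270 CPM in replicate 2 against 338 CPM in replicate 1. The leading effectors were Rabep1, which binds Rab5, with 136 CPM in replicate 2 and 148 in replicate 1, and Rph3a, a Rab3 effector on synaptic vesicles, with 109 CPM in replicate 2 and 116 in replicate 1. Among exchange factors Rab3ip, which activates Rab8, had 61.3 CPM in replicate 2 and 68.9 in replicate 1, and Dennd5a had 61.3 CPM in replicate 2 and 43.6 in replicate 1. Among GTPase-activating proteins Tbc1d9b had 85.9 CPM in replicate 2 and 78.8 in replicate 1 and Tbc1d10a 63.6 CPM in replicate 2 and 43.6 in replicate 1.

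The 3 lower regulators had few reads. Ccz1, a subunit of the exchange factor for Rab7, had 10 reads in replicate 2 and 49 in replicate 1, a log2 ratio of -2.23 with an exact binomial adjusted p of 6.89e-06. Dennd6a, an exchange factor for Rab14, had 9 reads in replicate 2 and 37 in replicate 1, with a ratio of -1.98 and an exact binomial adjusted p of 0.000704. Evi5, a protein with the GTPase-activating domain and a partner of Rab11, had 40 reads in replicate 2 and 87 in replicate 1, with a ratio of -1.11 and an exact binomial adjusted p of 0.000649. The Rabs named with them had log2 ratios of -0.06 for Rab7, 0.30 for Rab14, 0.61 for Rab11a and -0.31 for Rab11b.

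Most reads of the family followed an annotated transcript. Reads on known transcripts made up 68.0% of Rab reads in replicate 2 and 74.0% in replicate 1, with 95% Clopper-Pearson intervals of 66.8% to 69.1% in replicate 2 and of 73.0% to 74.9% in replicate 1, against 67.7% in replicate 2 and 71.9% in replicate 1 over all annotated genes. Reads on incomplete chains of annotated introns made up 11.6% in replicate 2 and 9.44% in replicate 1, and new combinations of annotated splice sites 1.68% in replicate 2 and 1.76% in replicate 1. Reads with a splice site outside the annotation made up 5.41% in replicate 2 and 5.98% in replicate 1, against 2.81% in replicate 2 and 2.96% in replicate 1 over all genes. Rab3a alone supplied 258 of 365 such reads in replicate 2 and 335 of 465 in replicate 1. Without Rab3a the share over the other members was 1.79% in replicate 2 and 2.00% in replicate 1.

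The most frequent of those Rab3a splice sites lay at the end of its first exon. The chain that holds it and is otherwise that of Rab3a-201 had 246 of the 258 reads in replicate 2 and 306 of the 335 in replicate 1. The donor of Rab3a-201, after position 70754863, joined the exon starting at position 70755856 in 405 of 660 such reads of replicate 2 and in 666 of 984 of replicate 1. A donor after position 70754869 took 252 of 660 reads in replicate 2, or 38.2% (34.5% to 42.0%), and 311 of 984 in replicate 1, or 31.6% (28.7% to 34.6%). It lies 1 base beyond the donor of Rab3a-204, which is after position 70754868, and Rab3a-204 itself had no reads in either library, which allows up to 2.30 CPM. Whether these reads come from Rab3a-204 was not tested, and they are counted here as outside the annotation. The exon end printed above stops 1 base short of the donor in the reads. Both forms have the coding sequence starting at 70755856, so the choice lies within the 5′ UTR. The difference between the libraries in this share was not tested.

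In most members with enough reads, a single transcript held nearly all known-transcript reads. Among the 29 with at least 20 known-transcript reads in each library, the leading transcript held 90% or more in both libraries in 28. In 13 of them it held every known-transcript read. Only Rab28 had 2 transcripts with at least 10% in both libraries, 1 of 29 members, where 872 of 3956 annotated genes with as many reads, or 22.0%, had 2 or more. That difference was not tested. The count takes Rab3a as having 1 major transcript, Rab3a-201, since the reads 1 base from the donor of Rab3a-204 are left out of it. Members with fewer reads were not counted, and among them Rab34, named after its values were seen, had 12 reads on Rab34-201 and 11 on Rab34-203 in replicate 2, and 12 on Rab34-201 and 6 on Rab34-203 in replicate 1. Rab28-201 held 78.8% of the known-transcript reads in replicate 2 and 84.0% in replicate 1, and Rab28-203 held 21.2% in replicate 2 and 16.0% in replicate 1. Fisher's exact test of the leading transcript's share, adjusted over the 2572 genes that could be tested, passed the threshold in 0 of 16 members, against 1.75% of all genes, and 1 of the 16 had an unadjusted p under 0.05.

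Inclusion of the alternative exons printed above was counted over informative reads, those that held the exon or joined exons on either side of it, or, for the Rab6a pair, held either exon. The upstream exon of Rab6a was on 21 of 771 informative reads in replicate 2, or 2.72% (1.69% to 4.13%), and on 20 of 771 in replicate 1, or 2.59% (1.59% to 3.98%). The downstream exon was on 750 reads of replicate 2 and 751 of replicate 1, and 0 reads held both exons, so nearly all informative Rab6a reads carried the downstream exon. The 95-base exon of Rab28 was included in 25 of 119 reads in replicate 2, or 21% (14.1% to 29.4%), and in 19 of 130 in replicate 1, or 14.6% (9.03% to 21.9%). Its exon of 89 bases at chr5:41698390-41698478, which is coding, was included in 104 of 117 reads in replicate 2, or 88.9%, and in 112 of 128 in replicate 1, or 87.5%. The most frequent chain that skips it, outside the annotation, had 10 reads in replicate 2 and 14 in replicate 1. Exons included in every informative read numbered 72. Of 84 other annotated or new internal exons, each with both including and skipping reads, in 25 members, 6 had an inclusion of 5% to 95%, and they lay in Rab28, Rab2b and Rab26. In Rab7 an annotated exon of 87 bases at chr6:88015632-88015718 was included in 19 of 447 reads in replicate 2, or 4.25%, and in 13 of 469 in replicate 1, or 2.77%.

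**Figure D4:**
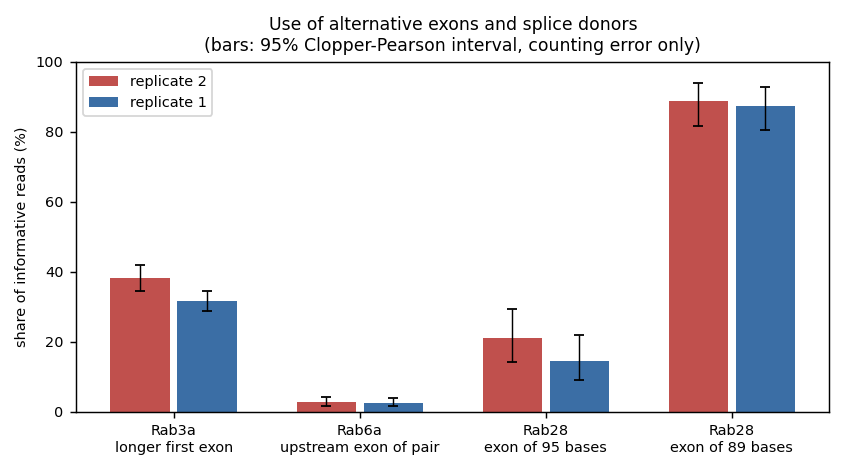
Share of informative reads that used the longer first exon of Rab3a, the upstream exon of the Rab6a pair and 2 exons of Rab28, for replicate 2 (red) and replicate 1 (blue), with 95% Clopper-Pearson intervals. The Rab6a upstream exon stays at 2.72% in replicate 2 and 2.59% in replicate 1, and the 95-base exon of Rab28 at 21% in replicate 2 and 14.6% in replicate 1.

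Chains of introns outside the annotation were counted in the members only, so no share over all annotated genes stands beside the count. Of 262 such chains, 39 in 20 members were found in both libraries, with 358 reads in replicate 2 and 443 in replicate 1. The Rab3a chain with the longer first exon had 246 of these reads in replicate 2 and 306 in replicate 1. Next by reads summed over both libraries came a Rab7 chain holding the 87-base exon, with 19 reads in replicate 2 and 11 in replicate 1.

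Distant 3′ ends were found in 1 of 31 members with at least 20 spliced reads in each library. The count was 0 on known transcripts only, 6 without replicate 1 and 3 without replicate 2. In Rab27b, 27 of 44 spliced reads in replicate 2 and 21 of 33 in replicate 1 were assigned to Rab27b-203, whose annotated end is at position 69979131 of chromosome 18. Models ending at position 69983656 had 11 of 44 in replicate 2 and 10 of 33 in replicate 1. Ends of known transcripts are set to the annotated ones in the deposited models, so the first position is not where those reads were seen to end, and ends within an annotated 3′ UTR could not be seen.

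Reads without an intron made up 19.4% of Rab reads in replicate 2 (18.4% to 20.3%) and 12.9% in replicate 1 (12.1% to 13.6%), against 24.9% in replicate 2 and 19.6% in replicate 1 over all annotated genes. Nearly all of them, 1297 of 1306 in replicate 2 against 982 of 1000 in replicate 1, overlapped the last exon of the leading transcript, which holds most of the 3′ UTR. Members differed widely in this share. In Rab31, whose last exon is 2775 bases long, 77.2% of reads in replicate 2 and 72.3% in replicate 1 were unspliced. In Rab6b they were 59.8% in replicate 2 and 48.5% in replicate 1, but in Rab7 7.65% in replicate 2 and 7.14% in replicate 1, and in Rab4b 1.10% in replicate 2 and 1.65% in replicate 1. The share was compared between libraries by Fisher's exact test, a test added after the data were seen, over 5824 genes with at least 20 reads in each library. It was higher in replicate 2 in 12 of 35 members, against 9.03% of all genes, and lower in 1, Rab3a, against 0.206%. More genes pass this test the more reads they have, and members were not matched to other genes by reads.

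The 4 genes that were lower in replicate 2 were all among the 12. This overlap was not counted over all genes called lower, so no share stands beside it. In Rab10, 29 of 41 reads in replicate 2 were unspliced, or 70.7%, and 14 of 114 in replicate 1, or 12.3% (adjusted p of 5.12e-10 by Fisher's exact test). In Rab2a the shares were 24.4% in replicate 2 and 3.71% in replicate 1 (adjusted p of 6.34e-15 by the same exact test), in Rab5a 32% in replicate 2 and 5.12% in replicate 1, and in Rab24 8.77% in replicate 2 and 0 of 159 reads in replicate 1, which allows up to 1.89%. On known transcripts alone these 4 genes were further apart than on all reads. Rab24 had 42 such reads in replicate 2 and 135 in replicate 1. Its log2 ratio, scaled to the library totals of such reads, was -1.56, against -1.47 on all reads. Rab10 had 9 known-transcript reads in replicate 2 and 89 in replicate 1, Rab5a had 34 in replicate 2 and 191 in replicate 1, and Rab2a had 119 in replicate 2 and 444 in replicate 1. The unspliced reads of the last 3 ran the other way, with 29 in replicate 2 and 14 in replicate 1 for Rab10, 24 in replicate 2 and 11 in replicate 1 for Rab5a, and 54 in replicate 2 and 22 in replicate 1 for Rab2a.

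Rab22a and Rab5b, of the same subfamily as Rab5a, had the same pattern without a called difference in total reads. So did Rab1b, Rab15 and Rab6b, which are outside it. Known-transcript reads were 103, 99 and 116 in replicate 2 and 158, 174 and 147 in replicate 1. Their unspliced reads were 41, 59 and 207 in replicate 2 and 22, 50 and 149 in replicate 1. Rab11a, Rab14 and Rab6a were among the 12 too, with more reads of both kinds in replicate 2. Rab5c and Rab31, also of the Rab5a subfamily, did not pass the test of the share. Rab5c had 4.17% in replicate 2 and 3.39% in replicate 1, and Rab31 77.2% in replicate 2 and 72.3% in replicate 1. Rab22a had 19 of 22 unspliced reads in replicate 2, or 86.4%, and 8 of 39 in replicate 1, or 20.5%. Rab5b had 37 of 48 in replicate 2, or 77.1%, and 17 of 62 in replicate 1, or 27.4%. When spliced reads alone were tested, against the library totals of such reads, Rab22a and Rab5b joined the 4 lower genes. That made 6 of 46, against 7.43% of all genes lower in that test. Rab22a was there with 3 reads in replicate 2 and 31 in replicate 1 and Rab5b with 11 in replicate 2 and 45 in replicate 1. Rab3a, the member that passed the test with a lower share in replicate 2, had 56 of 767 unspliced reads in replicate 2, or 7.30%, and 180 of 1258 in replicate 1, or 14.3%. In all, 26 of the 35 members had a higher share in replicate 2 and 9 a lower one. Over all 5824 genes tested, 4073 had a higher share in replicate 2 and 1726 a lower one.

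**Figure D5:**
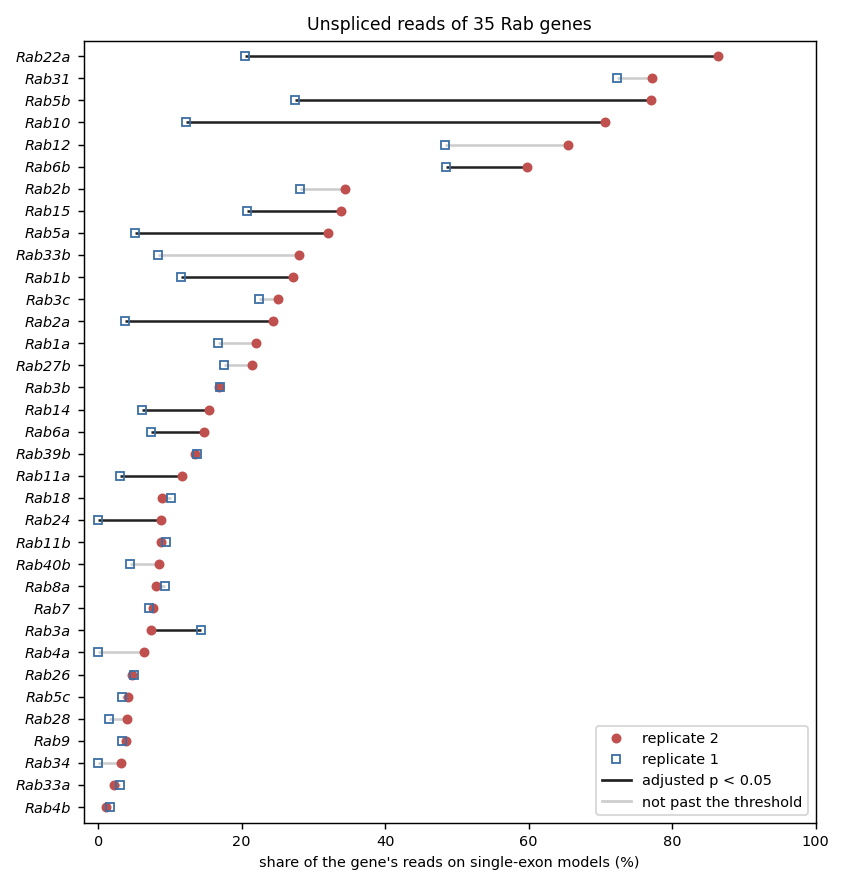
Share of each gene's reads on single-exon models for the 35 Rab genes tested, with filled circles for replicate 2, open squares for replicate 1 and dark lines where the difference passed the adjusted threshold. Rab22a, Rab10 and Rab5b have the longest lines, at 86.4%, 70.7% and 77.1% in replicate 2 and 20.5%, 12.3% and 27.4% in replicate 1.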

How the data were processed

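The deposited tables hold counts: per the file headers, numbers of whole reads per transcript model for each library, not normalized, with other values (exon number and length of a model). The deposited annotations hold other values too, the positions of GENCODE M21 features on mm10 and of models added by TALON, which classes long reads against an annotation. The aligner is not given in the sources used here. Reads of all models of an annotated gene were summed and scaled to CPM by the library total, 1304133 reads in replicate 2 and 1306424 in replicate 1. Ratios had 0.5 reads added. Exact binomial and Fisher's tests were run in SciPy 1.17.1 and were tested on simulated data. With 1 group, edgeR 4.0.16 and DESeq2 1.42.0 supplied only normalization factors for alternatives. Near copies were searched with blastn 2.17.0. Members, gene lists and tests were chosen with earlier results of these data known. Genes given in full were the 12 members of highest mean CPM, every called gene, the leading members of each role, members with 2 or more major isoforms, those nearest the read limit and the 2 leading genes of each regulator list. A Rab gene was counted as having distant 3′ ends when ends at least 500 bases apart each held 10% of spliced reads in both libraries. Alternatives changed the normalization, read class, minimum and thresholds, or left out a replicate.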

Additional observations from a re-analysis of the deposited data

Results flagged for a closer look

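Reads of unannotated models on the strand opposite to a member's exons, which no comparison above uses, exceeded 3 reads in both libraries in 6 of 47 members. Rab31 had 285 such reads over both libraries, 148 in replicate 2 and 137 in replicate 1, beside 167 reads of its own in replicate 2 and 101 in replicate 1. They lay on a single-exon model at chr17:65651729-65654104 of replicate 2 and chr17:65651729-65654103 of replicate 1, over the last exon of Rab31, where its unspliced reads lie as well. Rab6a had 45 (34 in replicate 2 and 11 in replicate 1), Rab1a 33 (24 in replicate 2 and 9 in replicate 1) and Rab14 31 (22 in replicate 2 and 9 in replicate 1). Rab6b had 24 (18 in replicate 2 and 6 in replicate 1) and Rab30 13 (9 in replicate 2 and 4 in replicate 1). The source of these reads was not tested.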

How the results depend on the processing

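Of 53 alternative settings over all results, 41 left the value within its spread or the count within 1.5 times, and 12 moved it. A reversal of direction was not scored. A level or share from 1 of 2 libraries always lies within 1 SD of their mean. Leaving out a replicate could therefore not move such a value. Rab2a, Rab5a, Rab10 and Rab24 were lower in replicate 2 under all 7 alternatives. With no fold limit 8 of 47 Rab genes were lower and 3 higher, against 8.11% and 4.72% of all genes. The regulators and effectors lower in replicate 2 came to 8 of 71 on spliced models only, against 7.43% of all genes. With no fold limit they came to 5 of 81, against 8.11%. On known transcripts only they came to 6 of 39, a setting for which the share over all genes was not counted. The summed level was 3957 CPM on known transcripts only and 6219 CPM with annotated non-mitochondrial reads as total. Without a replicate it was 5171 to 5949 CPM. The upstream exon of Rab6a was at 2.53% on known transcripts only. At 20% in both libraries 0 genes had 2 major isoforms. Distant 3′ ends were found in 0 genes on known transcripts only, and leaving out a replicate gave 3 to 6: 6 without replicate 1 and 3 without replicate 2, where the share had to be reached in 1 library only. The cause of the moved values was not tested where the setting itself does not state it. Reads limit the low members: Rab29 had an interval of -3.02 to 1.17 for its log2 ratio. No paired analysis was possible because all libraries belong to a single group. Dixon's test needs at least 4 samples, so no library could be tested as an outlier.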
